A study of Mus musculus with 12 samples.

Results

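The response of CD18-deficient dendritic cells to lipopolysaccharide (LPS) was examined in 6 of the 12 RNA-seq libraries of the series: the 3 libraries labelled fl/fl Cre+ with 24 h LPS and the 3 untreated fl/fl Cre+ libraries. The members were taken from the labels alone, and every gene with enough reads was tested. The cells were bone marrow-derived dendritic cells (BMDCs), grown from mouse bone marrow for 10 days with GM-CSF and enriched for MHCII+ cells before RNA was taken. The genotype CD18-delta-CD11c, called CD18 CD11c cKO here, carries a homozygous floxed exon 3 of the CD18 gene and a Cre recombinase driven by the CD11c promoter. The untreated libraries carry the same deletion as the LPS libraries. Cre acts only in cells that have switched on the CD11c promoter, so cells of the culture that have not can keep CD18. The remaining 6 libraries, fl/fl without Cre with and without 24 h LPS, were used only to ask whether the response differed between genotypes. LPS was given at 100 ng/mL. The labels give 24 h of LPS, whereas the methods describe the exposure as overnight, so the time is known only as closely as that. The labels number the replicates 1 to 3 within each group but do not say whether they came from separate mice or cultures, so the p-values measure the spread between these samples.

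LPS is a component of the outer membrane of Gram-negative bacteria. It is bound by CD14 and the TLR4-MD-2 receptor, which signals through the adaptor MyD88 to NF-κB and the inflammatory cytokines, and through the adaptor TRIF to interferon-β, which in turn drives the interferon-stimulated genes through STAT proteins and the interferon regulatory factors. In dendritic cells this programme is known as maturation: uptake receptors are lost, costimulatory molecules are gained and the cells prepare to prime T cells. CD18, encoded by Itgb2, is the common β chain of the β2 integrins, which pairs with CD11a (Itgal), CD11b (Itgam) and CD11c (Itgax).

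The 6 libraries held 29834029 to 32938458 reads assigned to genes, and 12687 genes passed the filter on low counts. Itgb2 (ENSMUSG00000000290, chr10:77366086-77401542 in the files, positions that match GRCm39) was read in every library. Scaled by library size alone, it gave 113, 155 and 203 counts-per-million (CPM) in the untreated cKO libraries against 460, 529 and 478 CPM in the untreated fl/fl libraries. After LPS it gave 90.5, 66.9 and 111 CPM in cKO against 162, 151 and 308 CPM in fl/fl. The cKO libraries were below the fl/fl libraries in both states, in the direction of the labels, although gene-level counts also hold reads from exons outside the deleted one. From here on CPM are scaled by the TMM method, and all fold changes are LPS against untreated in cKO, on the log2 scale, ± standard error. Genes of MHC class II presentation were read in every library. The cells had been enriched for MHCII+ cells, so these levels do not test the labelled cell type. Cd74, the MHC class II invariant chain, gave 3508, 2899 and 4092 CPM untreated and 1663, 1690 and 3367 CPM after LPS. H2-Ab1, an MHC class II β chain, gave 11868, 8924 and 7500 and 7263, 8892 and 7517 CPM. Replicate 3 stood apart in both states. Its untreated library held much less Ccr7, the receptor that takes mature dendritic cells to lymph nodes (184 CPM against 1672 and 1329 CPM), and its level of B cell markers was lower, with a sum of 1.76 CPM over the list against 242 and 323 CPM.

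LPS changed the level of genes in both directions, and how many passed the test depended on the replicate number. Without the replicate number in the model, 283 genes rose (2.23% of those tested) and 223 fell (1.76%), 506 in all (3.99%), at an adjusted p below 0.05 (edgeR quasi-likelihood test, Benjamini-Hochberg adjustment). With the replicate number as a block, 1300 genes rose (10.2%) and 1260 fell (9.93%), 2560 in all (20.2%). These shares, without and with the block, are the background for the counts of every function list below. All 283 and all 223 genes called without the block were called in the same direction with it. In each of these 506 genes the 3 LPS libraries lay on one side of the 3 untreated libraries, against 28.2% of all genes tested. The calls were made on these same libraries, so this separation is not separate support for them. The median size of the fold change was 2.20 among genes that rose and 2.23 among genes that fell, and 163 and 133 of them changed by more than 4-fold. As a share of all reads of a library, without TMM scaling, the genes that rose with the block held 14.8% to 17.8% untreated and 29.9% to 38.9% after LPS, and those that fell with it 16.1% to 18.3% and 5.98% to 9.46%; the calls themselves chose these genes. Scaling by library size without TMM put the median of all genes at -0.225, against -0.01 with TMM, and gave 186 genes that rose and 300 that fell, or 884 and 1864 with the block. The count without the block rested on the libraries of replicates 1 and 2: the genes that rose and fell numbered 0 and 0 without untreated library 1, 3 and 1 without untreated library 2, 21 and 5 without LPS library 1, and 2 and 0 without LPS library 2. By contrast 197 and 160 were called without the untreated library of replicate 3, and 545 and 488 were called without its LPS library.

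**Figure D1:**
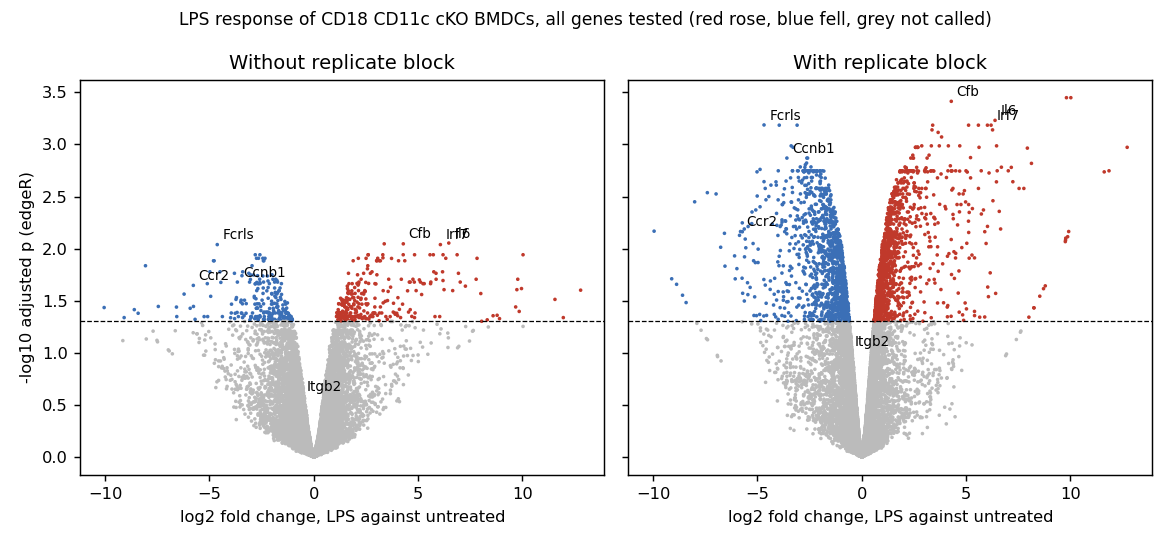
Fold change (log2, x axis) against -log10 of the edgeR adjusted p (y axis) for the 12687 genes tested, without (left) and with (right) the replicate number as a block. Points above the dashed line at 0.05 are genes that rose (red) or fell (blue); 283 and 223 are coloured on the left and 1300 and 1260 on the right, and Itgb2 lies below the line in both.

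The genes with the smallest p-values among those that rose were a mixture of cytokine, interferon-stimulated and surface protein genes. Il6 (ENSMUSG00000025746, chr5:30218112-30224979), which encodes interleukin 6, gave 5.89, 5.33 and 5.86 CPM untreated and 335, 423 and 758 CPM after LPS. Its fold change was 6.47 ± 0.42 on the log2 scale, or 88.7-fold (edgeR adjusted p = 0.00885, and 0.000587 with the block). Car13, a cytosolic carbonic anhydrase, rose with little spread, from 37.3, 34.4 and 37.2 to 311, 415 and 405 CPM. Cfb, complement factor B of the alternative pathway, rose from 35.9, 36.7 and 24.0 to 688, 731 and 469.6 CPM. For Procr, the endothelial protein C receptor, the libraries held 58.1, 109 and 131 CPM untreated and 2414, 1987 and 1409 CPM after LPS, a fold change of 4.29 ± 0.42. The untreated and LPS libraries did not overlap in any of these 4 genes, and the lowest LPS library held over 8-fold the CPM of the highest untreated library. Casp4, the caspase that binds cytosolic LPS, rose from 20.5, 17.7 and 18.3 to 122, 123 and 98.9 CPM (2.61 ± 0.23). Tnfsf15, a ligand of the TNF superfamily, rose from 2.20, 1.36 and 1.97 to 84.8, 46.9 and 162 CPM. A few genes were nearly silent without LPS. Gp6, a collagen receptor best known from platelets, had no read in any untreated library and 21.9, 55.4 and 6.89 CPM after LPS. With 3 reads per library as the limit of detection, its mean was at least 314-fold higher. Such bounds here and below compare the mean of the LPS libraries with that limit, so a library under the mean has a lower bound. Adh7, an alcohol dehydrogenase that acts on retinol, was likewise at 0 in all untreated libraries and at 29.4, 16.9 and 1.05 CPM after LPS. Its mean was at least 176-fold higher, with replicate 3 far below that mean.

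**Figure D2:**
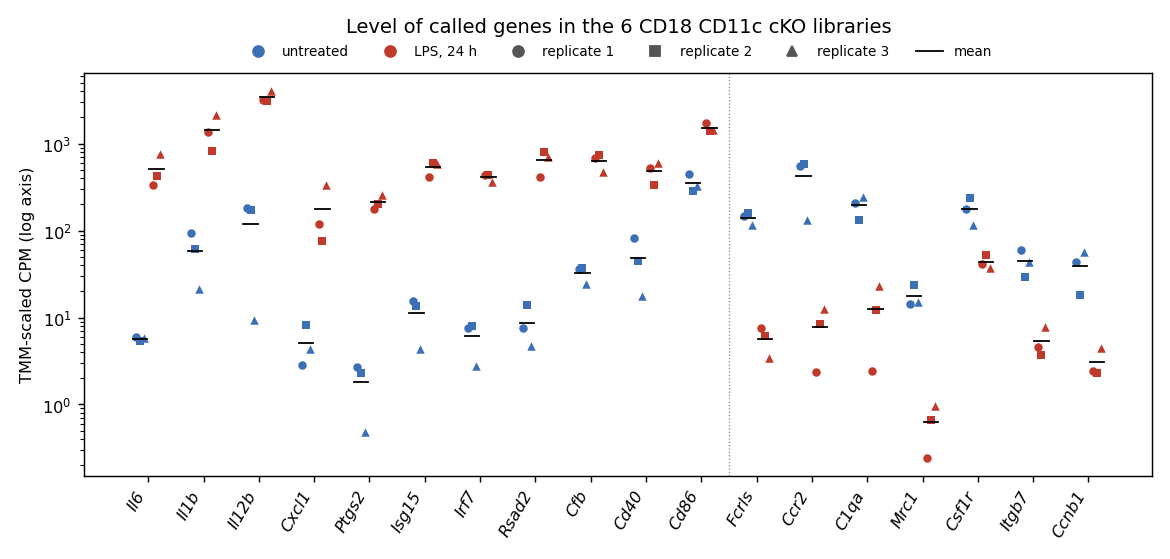
TMM-scaled CPM on a log axis for 18 called genes in each of the 6 cKO libraries, untreated (blue) and after LPS (red), with the replicate number as marker shape and the mean as a bar; 11 genes that rose stand left of the dotted line and 7 that fell right of it. Untreated and LPS libraries are apart in every gene, and replicate 3 is the lowest untreated library for Il1b, Il12b, Ptgs2 and Cd40.

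Among the receptors and adaptors that sense LPS, the test without the block called none of 26 genes. With the block 9 rose and 3 fell (edgeR), against 10.2% and 9.93% of all genes. The list's median was 0.49 against -0.01 for all genes. Tlr4 itself did not pass in either model: it gave 23.3, 25.3 and 57.6 CPM untreated and 15.0, 8.62 and 62.3 CPM after LPS, with the highest level of each state in replicate 3. Cd14, the LPS co-receptor, gave 191, 260.0 and 62.1 CPM untreated and 646, 367 and 415 CPM after LPS. Every LPS library of Cd14 was above every untreated one, and its fold change with the block was 1.67 ± 0.41 (edgeR adjusted p = 0.0313, against 0.159 without). Traf1, a signalling adaptor induced by NF-κB, rose with the block by 1.96 ± 0.23, and Tank, which binds the kinase TBK1, by 1.15 ± 0.18. Wdfy1, an adaptor reported to link TLR3 and TLR4 to TRIF, gave 4.17, 4.15 and 5.19 CPM and 6.91, 5.67 and 4.15 CPM and passed in neither model. Of the 5 NF-κB subunits only Rel was called, with the block (1.14 ± 0.24, edgeR adjusted p = 0.0182). Among 16 inhibitors that NF-κB itself induces, 1 rose without the block and 5 with it. Tnip3, a partner of the deubiquitinase A20, was the one called in both and rose from 327, 284 and 298 to 1438, 1405 and 1150 CPM (2.13 ± 0.23). Atf3, a stress-induced repressor of the AP-1 class, rose from 218, 276 and 100.5 to 1082, 1047 and 552 CPM, and Fos fell from 45.0, 79.7 and 30.3 to 9.77, 16.2 and 10.4 CPM.

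Inflammatory cytokines rose as a group. Of 22 tested members of that list, 8 rose and 1 fell without the block, and 17 rose and 1 fell with it. The list's median fold change was 2.74 (2.64 when 2 genes at 0 in a whole group are set to the limit of detection), against -0.01 for all genes. Il1b, which encodes interleukin 1β, gave 93.3, 60.7 and 21.4 CPM untreated and 1355, 819.6 and 2136 CPM after LPS (4.62 ± 0.65, edgeR adjusted p = 0.021). Il12b, the p40 chain shared by interleukins 12 and 23, rose from 182, 170.5 and 9.26 to 3138, 3119 and 4008 CPM. The 3 LPS libraries of Il12b were alike, and it was the untreated library of replicate 3 that was low. Ifnb1, interferon-β itself, was at 0 in the untreated libraries and at 1.26, 7.57 and 2.14 CPM after LPS, at least 40.9-fold higher. Tnf gave 5.42, 3.75 and 28.8 CPM untreated and 13.5, 15.6 and 81.3 CPM after LPS. Its groups overlapped, and it passed only with the block (1.62 ± 0.22, edgeR adjusted p = 0.00456, against 0.416 without). Il1a, which encodes interleukin 1α and is named here because of its values, gave 1.34, 1.27 and 11.4 CPM and 74.2, 28.8 and 379 CPM and also passed only with the block (5.12 ± 0.30). The member that fell was Ltb, lymphotoxin β, from 35.1, 25.9 and 19.4 to 4.43, 2.56 and 3.31 CPM (-2.96 ± 0.35). Il10 did not pass the filter on low counts and was not tested, with 0.0319, 0.0929 and 0 CPM untreated and 2.41, 2.37 and 0.271 CPM after LPS. Every LPS library was above every untreated one, but replicate 3 held only 9 reads after LPS, against 69 and 61.

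CXC chemokines, which attract neutrophils and activated T cells, included 4 of 10 genes that rose without the block and 8 with it, and none that fell. Cxcl1 rose from 2.84, 8.17 and 4.39 to 120.2, 75.4 and 337 CPM and Cxcl2 from 20.4, 13.6 and 14.5 to 160.2, 90.1 and 371 CPM, both ligands of the neutrophil receptor CXCR2. For both, replicate 3 held the highest level after LPS. Cxcl5 was at 0 in every untreated library and at 5.38, 4.27 and 26.3 CPM after LPS, at least 134-fold higher. Cxcl11, named for an interferon-induced ligand of CXCR3, is annotated as a polymorphic pseudogene. Its transcript was likewise at 0 and then at 2.51, 6.64 and 2.68 CPM, at least 44.1-fold higher. Whether a functional ligand was made was not tested. Of 14 tested CC chemokines, none was called without the block. With it 2 rose and 1 fell, close to the shares of all genes (10.2% and 9.93%). Ccl17, a ligand of CCR4, gave 407, 116 and 2211 CPM untreated and 511, 337 and 11536 CPM after LPS, and Ccl6 gave 2151, 3182 and 18955 and 986, 894 and 15356 CPM. Both were several-fold higher in replicate 3 than in the others in either state, and both were called only with the block (1.42 ± 0.38 and -1.09 ± 0.29). Enzymes of prostaglandin and leukotriene synthesis moved in both directions. Ptgs2, the inducible cyclooxygenase, rose from 2.68, 2.32 and 0.479 to 179, 201 and 259.6 CPM (6.87 ± 0.70, edgeR adjusted p = 0.0115), and Ptges, the prostaglandin E synthase downstream of it, from 0.287, 0.898 and 2.34 to 63.7, 87.6 and 55.8 CPM. With the block, 3 of 16 genes of the prostaglandin and leukotriene list rose and 6 fell. The 6 were Ptgs1, the constitutive cyclooxygenase, Alox5 and Alox5ap, 5-lipoxygenase and its activator, Lta4h of leukotriene B4 synthesis, and the prostanoid synthases Hpgds and Tbxas1.

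The promoters of 3 genes that rose, a cytokine, a chemokine and complement factor B, are shown because each holds the letters of an NF-κB site. The 250 bases before the start of the canonical transcript were read from GRCm39 with GENCODE vM39 and searched on both strands for kappa-B letters (GGG, 2 bases of any kind, TT, 1 base of any kind, CC), and matches are in capitals. Il6 is at chr5:30217862-30218111 on the plus strand, Cxcl2 at chr5:91051480-91051729 on the plus strand and Cfb at chr17:35081560-35081809 on the minus strand.
Il6: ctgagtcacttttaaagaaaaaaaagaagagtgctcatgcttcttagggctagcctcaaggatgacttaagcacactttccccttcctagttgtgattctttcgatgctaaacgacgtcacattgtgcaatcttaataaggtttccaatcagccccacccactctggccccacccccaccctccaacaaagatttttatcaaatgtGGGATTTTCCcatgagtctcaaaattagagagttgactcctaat
Cxcl2: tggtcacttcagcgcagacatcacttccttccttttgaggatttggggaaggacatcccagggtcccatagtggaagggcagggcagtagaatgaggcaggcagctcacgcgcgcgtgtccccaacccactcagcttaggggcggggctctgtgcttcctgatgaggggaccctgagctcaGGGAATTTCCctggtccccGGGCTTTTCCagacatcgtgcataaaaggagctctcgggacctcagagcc
Cfb: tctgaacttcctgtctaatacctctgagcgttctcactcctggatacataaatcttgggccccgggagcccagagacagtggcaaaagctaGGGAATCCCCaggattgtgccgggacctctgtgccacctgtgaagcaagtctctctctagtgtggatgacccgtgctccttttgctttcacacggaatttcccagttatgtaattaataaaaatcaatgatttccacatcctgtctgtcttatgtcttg
The Il6 promoter held 1 match, that of Cxcl2 held 2, and that of Cfb held 1, read on the opposite strand. Of the 283 genes that rose without the block, 11.7% held the kappa-B letters in this window, against 4.48% of the genes that fell and 4.54% of all 12656 tested genes with a promoter. With the block the shares were 7.39% and 3.89%. Among the CXC chemokines called with the block, 6 of 8 promoters held a match, and among the inflammatory cytokines 3 of 18. A match describes letters and not a site in use, and no test was applied.

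Genes of the interferon response rose together. Of 39 tested genes of the type I interferon response, 23 rose and none fell without the block, and 33 rose and none fell with it (edgeR, against 2.23% and 10.2% of all genes), with a median of 2.27. In 35 of the 39, all 3 LPS libraries were above all 3 untreated libraries, against 14.1% of all genes. Isg15 (ENSMUSG00000035692, chr4:156283912-156285253), a ubiquitin-like modifier, gave 15.6, 13.7 and 4.34 CPM untreated and 418, 595 and 587 CPM after LPS (5.57 ± 0.56, edgeR adjusted p = 0.0115). Rsad2, the antiviral enzyme viperin, rose from 7.65, 13.8 and 4.71 to 418, 798 and 704 CPM (6.20 ± 0.54). Ifit1, which binds viral RNA caps, rose from 4.78, 3.96 and 0.665 to 96.9, 138 and 224 CPM and Oasl1, which restrains translation of Irf7, from 4.71, 4.58 and 0.532 to 111, 163 and 201 CPM. In all 4 genes replicate 3 had the lowest untreated level, and after LPS it lay within or above the range of the others. Irf7, the regulator that amplifies interferon production, was among the genes with the smallest p-values. It gave 7.58, 8.08 and 2.74 CPM untreated and 431, 439.9 and 364 CPM after LPS (6.07 ± 0.50, edgeR adjusted p = 0.00915). It was the only one of 10 IRF genes called without the block. Irf8, a lineage factor of dendritic cells, gave 937, 856 and 121 CPM untreated and 3324, 2689 and 659 CPM after LPS, and passed with the block alone (1.98 ± 0.22). Of 7 STAT genes, 2 rose without the block and 5 with it. Stat2, which transmits type I interferon signals, rose from 15.2, 14.2 and 30.3 to 158, 174 and 194 CPM. The SOCS genes, which restrain these signals, were not called without the block in any of 8 cases. With it 1 rose and 1 fell, close to the shares of all genes (10.2% and 9.93%). Socs3 gave 12.4, 8.92 and 84.7 CPM and 15.3, 12.3 and 249 CPM, and Socs2 89.4, 76.8 and 148 CPM and 148, 109 and 172 CPM, and neither passed in either model.

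Guanylate-binding proteins and immunity-related GTPases, which act on intracellular vacuoles, included 11 of 18 genes that rose without the block and 14 with it, with a median of 1.95. Iigp1 rose from 1.47, 1.39 and 0 to 29.6, 81.5 and 48.4 CPM, Gbp6 from 2.20, 1.18 and 6.81 to 47.4, 35.8 and 61.3 CPM and Gbp5 from 28.3, 26.9 and 19.9 to 93.3, 112 and 366 CPM. On reads with a single placement Gbp6 was no longer called (edgeR adjusted p = 0.0678). Tgtp2 rose from 13.3, 7.49 and 1.76 to 103, 221 and 107 CPM, but it has a near-identical neighbour with which it can share reads, so its level is uncertain, although it was called on reads with a single placement.

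Promoters of interferon-stimulated genes that rose are shown for the letters of the interferon-stimulated response element (GAAA, 2 bases of any kind, GAAA), on both strands of the same 250-base window and again in capitals. Isg15 is at chr4:156285304-156285553 on the minus strand, Rsad2 at chr12:26506452-26506701 on the minus strand and Ddx60, a helicase of the RNA-sensing pathway that rose from 3.89, 3.38 and 2.26 to 24.4, 35.9 and 34.1 CPM, at chr8:62380873-62381122 on the plus strand.
Isg15: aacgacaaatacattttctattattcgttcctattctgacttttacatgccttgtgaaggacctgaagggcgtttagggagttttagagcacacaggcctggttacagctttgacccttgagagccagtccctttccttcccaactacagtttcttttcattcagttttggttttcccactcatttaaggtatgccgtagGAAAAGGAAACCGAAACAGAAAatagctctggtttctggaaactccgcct
Rsad2: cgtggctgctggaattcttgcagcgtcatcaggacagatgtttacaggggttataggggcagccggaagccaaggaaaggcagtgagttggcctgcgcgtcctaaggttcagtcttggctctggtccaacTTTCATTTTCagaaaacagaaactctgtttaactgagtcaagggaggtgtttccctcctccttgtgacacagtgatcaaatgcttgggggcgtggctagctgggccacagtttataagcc
Ddx60: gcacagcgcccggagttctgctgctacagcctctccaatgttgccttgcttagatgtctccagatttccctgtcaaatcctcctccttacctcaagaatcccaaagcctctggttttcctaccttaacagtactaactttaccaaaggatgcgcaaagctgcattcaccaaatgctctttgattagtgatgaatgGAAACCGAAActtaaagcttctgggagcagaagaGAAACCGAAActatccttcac
In Isg15 the capitals are 3 overlapping matches, in Ddx60 2 separate ones, and in Rsad2 1 match on the opposite strand. The letters were found in 10.6% of promoters of genes that rose without the block, 4.04% of those that fell and 3.33% of all. Among the 33 interferon-response genes called with the block, 13 promoters (39.4%) held them. Of the other letters searched, the GAS letters TTCNNNGAA were in 9.19% of promoters of genes that rose without the block, 8.52% of those that fell and 6.71% of all.

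Costimulatory molecules rose, while MHC class II genes did not. Of 20 tested genes of costimulation and maturation, 7 rose and 1 fell without the block, and 12 rose and 3 fell with it. Cd86, a ligand of CD28, gave 449, 289 and 328 CPM untreated and 1735, 1397 and 1430 CPM after LPS (2.10 ± 0.27, edgeR adjusted p = 0.0179). Cd80, the other ligand of CD28, rose from 34.8, 28.7 and 70.8 to 231, 157 and 413 CPM and Cd40, which receives T cell help, from 82.7, 44.1 and 17.8 to 522, 332 and 596 CPM. Inhibitory ligands rose as well: Cd274, which encodes PD-L1, went from 63.1, 56.6 and 124 to 332, 316 and 558 CPM and Cd200 from 24.5, 37.0 and 16.7 to 192, 222 and 216 CPM. The untreated and LPS libraries were apart in all 5 genes. Tnfsf14, which encodes the ligand LIGHT, fell from 2.74, 3.22 and 1.46 CPM to 0, 0 and 0.0602 CPM. Ccr7 gave 1672, 1329 and 184 CPM untreated and 1426, 1131 and 1135 CPM after LPS and passed in neither model. In replicates 1 and 2 it was slightly lower after LPS, and in replicate 3 it was higher.

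Of 13 MHC class II genes, none rose and 1 fell without the block, and 2 fell with it, with a median of -0.29. Among all genes 1.76% fell without the block and 9.93% with it. The call was H2-DMa, a chain of the peptide editor H2-DM, which fell from 432, 323 and 268 to 106, 142 and 117 CPM (-1.48 ± 0.27, edgeR adjusted p = 0.0378). H2-Ab1 had a fold change of -0.26 ± 0.27 (edgeR adjusted p = 0.642), and Ciita, the master regulator of class II genes, gave 70.2, 49.5 and 57.8 CPM and 41.4, 39.4 and 64.1 CPM. Class I genes moved the other way. Of 23 genes of class I and peptide processing, 7 rose and none fell without the block, and 18 rose with it. H2-T22, a non-classical class I molecule, rose from 166, 128 and 108 to 1129, 941 and 566 CPM (2.71 ± 0.35). H2-Q7 rose from 114, 80.3 and 78.5 to 653, 553 and 276 CPM and H2-Q6 from 56.4, 51.9 and 47.6 to 341, 297 and 179 CPM. Class I genes have near-identical copies and these levels are uncertain, although reads with a single placement gave the same calls for all 3.

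The genes with the smallest p-values among those that fell included receptors and surface proteins of immature and macrophage-type cells. Fcrls (ENSMUSG00000015852, chr3:87158065-87171045), an Fc receptor-like scavenger receptor known from microglia, gave 149, 158 and 117 CPM untreated and 7.57, 6.13 and 3.40 CPM after LPS (-4.63 ± 0.38, edgeR adjusted p = 0.00915). Tm6sf1, a lysosomal membrane protein, fell from 129, 137 and 119.9 to 16.8, 24.0 and 23.7 CPM. Ltb4r1, the receptor for leukotriene B4, fell from 21.3, 33.5 and 27.1 to 3.84, 3.49 and 4.37 CPM and P2ry6, a receptor for UDP, from 25.9, 29.7 and 22.5 to 4.54, 5.82 and 5.06 CPM. Rassf5, also known as RAPL, which links the GTPase RAP1 to integrin activation, fell from 41.8, 26.5 and 29.3 to 5.72, 6.52 and 6.26 CPM (-2.40 ± 0.28, edgeR adjusted p = 0.0131). The libraries of the 2 states were apart in each of these 5 genes. Among 11 chemokine receptors, 3 fell in both models and 2 rose with the block, with a median of 0.14. With the block 9.93% of all genes fell and 10.2% rose. Ccr2, which takes monocytes out of the bone marrow, fell from 559.5, 588 and 132 to 2.34, 8.38 and 12.6 CPM (-5.78 ± 0.86, edgeR adjusted p = 0.0226), and Ccr1, a receptor for inflammatory CC chemokines, from 936, 975 and 656 to 421, 318 and 306 CPM.

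C-type lectins, which bind sugars on microbes and glycoproteins, included 5 of 19 genes that fell and 1 that rose without the block, and 10 that fell and 3 that rose with it, with a median of -1.72. Mrc1, the mannose receptor, fell from 14.3, 23.5 and 15.1 to 0.244, 0.660 and 0.963 CPM and Clec4b1 from 43.4, 39.4 and 16.1 to 0.628, 1.55 and 1.42 CPM. The lectin that rose was Clec4e, or Mincle, a receptor for mycobacterial glycolipids, from 56.6, 53.2 and 234 to 3437, 3287 and 2988 CPM (4.82 ± 0.67, edgeR adjusted p = 0.021). Clec10a and Mgl2, galactose-binding lectins that mark conventional DC2, gave 111, 66.1 and 299 and 602, 309 and 1557 CPM untreated, and 5.58, 4.46 and 23.2 and 23.7, 28.4 and 222 CPM after LPS. Both were several-fold higher in replicate 3 and fell with the block only (-3.96 ± 0.22 and -3.63 ± 0.38). Of 6 Fc receptor genes, Fcgr2b, the inhibitory IgG receptor, fell from 66.8, 114 and 101 to 22.6, 36.1 and 34.8 CPM and Fcgrt, the neonatal Fc receptor, from 127, 85.3 and 66.4 to 18.3, 13.8 and 19.3 CPM. Vsir, the checkpoint protein VISTA, fell from 59.2, 94.5 and 45.4 to 14.8, 21.3 and 12.8 CPM. It was one of 2 of 18 inhibitory and DAP12-coupled receptor genes called without the block, and 9 fell with it. The scavenger receptor Marco, which binds bacteria, went against these receptors and rose from 0.510, 0.371 and 0.0798 to 13.1, 17.5 and 4.12 CPM.

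Markers of other cell types moved in the same libraries, and in bulk samples fewer cells of a type and less RNA per cell cannot be told apart. Of 10 macrophage markers, 4 fell without the block and 6 with it, with a median of -2.36, and their summed level went from 1660, 1753 and 2255 CPM to 477, 766 and 877 CPM. C1qa, a chain of complement C1q, fell from 209.6, 131 and 242 to 2.44, 12.2 and 22.9 CPM and Csf1r, the M-CSF receptor, from 175, 236 and 116 to 41.4, 52.0 and 37.5 CPM. Of 6 tested B cell markers none was called without the block and 3 fell with it. The sum over all 8 was 242, 323 and 1.76 CPM untreated and 27.5, 64.4 and 1.81 CPM after LPS. Ighm, the immunoglobulin μ chain, gave 142, 194 and 1.09 CPM and 11.3, 27.9 and 0.361 CPM. The sum over 11 neutrophil markers went from 300, 411 and 99.5 CPM to 89.4, 97.1 and 56.7 CPM, with 1 of 7 tested genes called without the block (Mmp8, 126, 264 and 89.4 to 41.0, 37.6 and 43.4 CPM) and 2 with it. Mmp8 made up a large part of these sums, so they do not describe the other members. Of 7 monocyte markers, 1 rose and 1 fell without the block, and 2 rose and 2 fell with it. Their sum went from 763, 1041 and 171 CPM to 274, 247 and 101 CPM. It includes Ccr2, at 559.5, 588 and 132 CPM untreated and 2.34, 8.38 and 12.6 CPM after LPS, so it does not describe the other members. Vcan, a secreted proteoglycan of monocytes, rose from 2.33, 4.12 and 3.25 to 12.8, 9.43 and 16.1 CPM. T and NK cell markers summed to 4.13 to 32.5 CPM untreated and 2.80 to 3.84 CPM after LPS. The part of these cells in the falls described above was not tested.

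All 5 β2 integrin genes had lower CPM after LPS in each same-numbered pair. None of the 5 passed without the block, and Itgam and Itgax fell with it. Itgam, which encodes CD11b, gave 257, 370.2 and 622 CPM untreated and 34.9, 58.0 and 155 CPM after LPS (-2.52 ± 0.23 with the block, edgeR adjusted p = 0.00179, against 0.0797 without), and the 2 states did not overlap. Itgax, whose promoter drives the Cre used here, gave 127, 133 and 626 CPM untreated and 39.6, 31.5 and 265 CPM after LPS, and its 2 states overlapped, with replicate 3 higher in both (-1.66 ± 0.22 with the block, edgeR adjusted p = 0.00406). Itgb2 had a fold change of -0.60 ± 0.27 (edgeR adjusted p = 0.264, and 0.098 with the block), and Itgal gave 20.1, 14.6 and 43.7 and 7.40, 9.20 and 36.3 CPM. Other integrin chains were called without the block: Itgb7, the partner of α4 and αE, fell from 60.1, 29.4 and 43.1 to 4.57, 3.69 and 7.86 CPM (-3.04 ± 0.42), and Itgb5, a partner of αv, from 28.7, 64.6 and 26.6 to 7.71, 13.3 and 8.73 CPM. Of 13 such chains these 2 fell, and with the block 3 rose and 4 fell.

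Genes of cell division fell as a group. Of 41 tested genes of mitosis, 8 fell and 1 rose without the block, and 27 fell and 1 rose with it (edgeR, against 1.76% and 9.93% of all genes that fell), with a median of -2.02. Ccnb1 (ENSMUSG00000041431, chr13:100915158-100923078), the mitotic cyclin B1, gave 43.0, 17.9 and 56.2 CPM untreated and 2.44, 2.29 and 4.49 CPM after LPS (-3.66 ± 0.52, edgeR adjusted p = 0.021). Ccnb2 fell from 41.3, 10.9 and 33.7 to 0.593, 0.427 and 3.04 CPM, Cdc20, which activates the anaphase-promoting complex, from 17.6, 5.85 and 24.9 to 0.942, 0.815 and 2.74 CPM and Kif20a, a mitotic kinesin, from 9.97, 5.60 and 18.7 to 0.419, 0.427 and 1.35 CPM. The untreated library of replicate 2 had the lowest level of all 4 before LPS. The gene that rose was Pttg1, or securin, from 13.9, 15.2 and 9.95 to 32.8, 33.3 and 26.5 CPM. Of 40 DNA replication genes, 3 fell without the block, and 13 fell and 2 rose with it, with a median of -0.60. Mcm7 and Mcm5, subunits of the replicative helicase, fell from 53.8, 40.4 and 49.7 to 19.9, 20.4 and 16.1 CPM and from 29.7, 14.5 and 30.2 to 6.63, 5.16 and 7.74 CPM. Promoters of mitotic genes are known to carry a CHR element and CCAAT boxes. For Cdc20 (chr4:118294611-118294860 on the minus strand) and Ccnb2 (chr9:70328875-70329124 on the minus strand) the 250 bases before the start are shown with the letters TTTGAA on either strand in capitals, and in Ccnb2 also the letters CCAAT.
Cdc20: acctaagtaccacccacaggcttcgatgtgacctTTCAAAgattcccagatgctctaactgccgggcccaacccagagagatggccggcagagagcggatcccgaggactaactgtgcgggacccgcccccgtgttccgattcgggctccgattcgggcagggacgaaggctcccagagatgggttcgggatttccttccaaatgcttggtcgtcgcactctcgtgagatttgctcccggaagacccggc
Ccnb2: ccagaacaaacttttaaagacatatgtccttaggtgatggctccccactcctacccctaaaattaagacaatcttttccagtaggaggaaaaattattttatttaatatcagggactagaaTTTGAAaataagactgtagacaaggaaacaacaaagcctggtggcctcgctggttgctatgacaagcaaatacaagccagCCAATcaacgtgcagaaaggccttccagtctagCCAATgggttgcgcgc
In Cdc20 the CHR letters lay 211 to 216 bases before the start, on the opposite strand, and the window held no CCAAT letters. In Ccnb2 they lay 124 to 129 bases before the start, farther out than the CCAAT letters at 45 to 49 and 12 to 16 bases. Whether these matches are the known elements was not tested. The CHR letters were in 9 of 28 promoters of mitosis genes called with the block (32.1%), against 12.6% of all promoters, and the CCAAT letters in 50% against 36.1%. Among all called genes the CHR letters were in 17% of promoters of genes that fell and 18% of those that rose without the block, and in 12.6% and 16.3% with it.

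**Figure D3:**
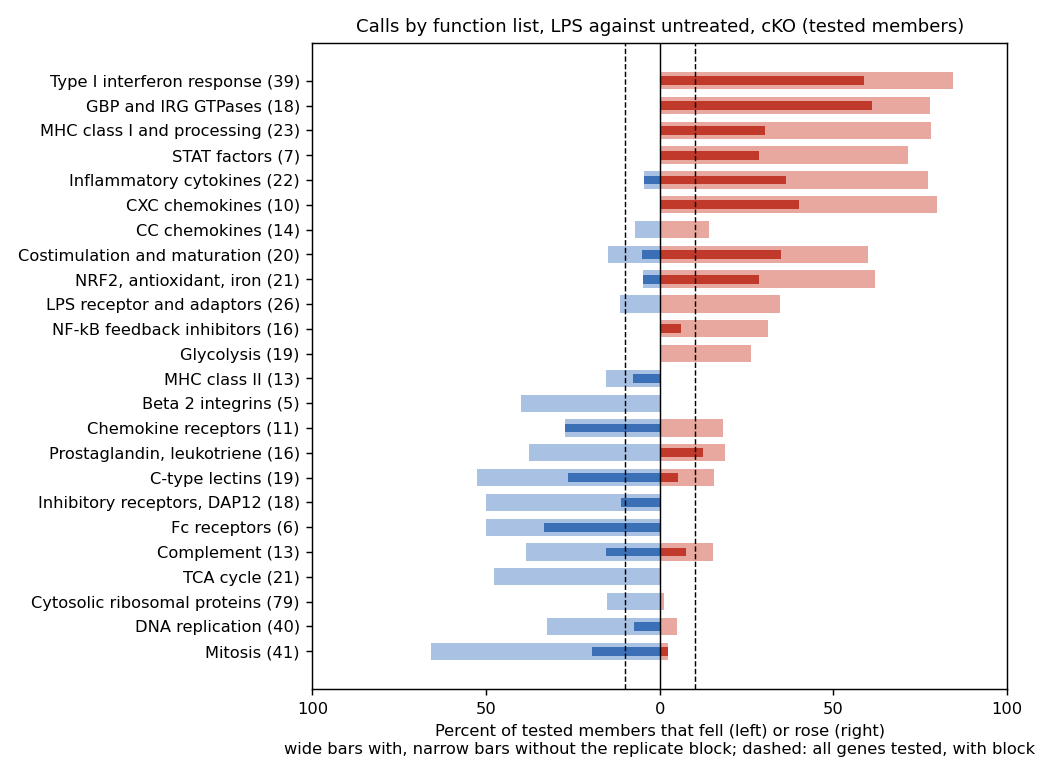
Percent of the tested members of 24 function lists (number tested in brackets) that rose (right, red) or fell (left, blue), with the replicate block (wide bars) and without it (narrow bars). Dashed lines are the shares of all genes called with the block, 10.2% and 9.93%; the interferon, GTPase and class I lists are among those that extend only to the right, and the mitosis list mostly to the left.

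Genes of nitric oxide and itaconate synthesis, glycolysis and the citrate cycle were called only with the block. Nos2, the inducible nitric oxide synthase, gave 0.159, 0 and 5.06 CPM untreated and 63.7, 78.4 and 314 CPM after LPS, and Acod1, which makes itaconate, gave 3.85, 2.10 and 54.7 CPM and 413, 377 and 521 CPM. In both the untreated library of replicate 3 was well above the others, and both rose with the block (7.54 ± 0.84 and 5.89 ± 0.91, edgeR adjusted p = 0.00264 and 0.00688) and not without (0.0891 and 0.0924). Of 21 genes of the citrate cycle, none was called without the block, and 10 fell and none rose with it, with a median of -0.47. Idh1, on that list although it encodes the cytosolic isocitrate dehydrogenase, gave 366, 575 and 324 CPM and 110.0, 223 and 146 CPM (-1.42 ± 0.19 with the block, edgeR adjusted p = 0.0046). Mdh1, the cytosolic malate dehydrogenase, and Sdhb, also on the list, passed in neither model. The other genes of the list that fell are not named here. Of 19 glycolysis genes, 5 rose with the block, Pgk1 among them, from 534, 889.9 and 769 to 2000, 1422 and 1148 CPM. Antioxidant and iron genes passed in both models, with 6 of 21 risen and 1 fallen without the block and 13 and 1 with it. Hmox1, heme oxygenase 1, rose from 40.4, 128 and 98.4 to 419, 684 and 506 CPM and Lcn2, which binds bacterial siderophores, from 3.28, 3.22 and 0.745 to 40.9, 44.2 and 47.5 CPM. Sod2, the mitochondrial superoxide dismutase, rose from 35.8, 35.9 and 86.8 to 182, 241 and 438 CPM. Tfrc, the transferrin receptor, fell from 168, 84.5 and 60.8 to 20.6, 23.2 and 15.3 CPM (-2.41 ± 0.42, edgeR adjusted p = 0.0339).

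Libraries with the same replicate number shared part of their level. The biological coefficient of variation was 0.526 without and 0.342 with it. Of the 2054 genes called only with the block, 2046 differed in the same direction in all 3 same-numbered pairs, which such a call largely requires. In 1400 the 2 states did not overlap, against 28.2% of all genes tested. The calls came from these same libraries, so neither count is separate support for the block. Irf8, Itgax and Tnf were among those whose states overlapped, with replicate 3 at a level of its own in both states. Log2 differences per pair for Irf8 were 1.83, 1.65 and 2.45, and for Itgax -1.67, -2.06 and -1.24. For Ccr7 they were -0.23, -0.23 and 2.62, of unlike sign, and that gene passed in neither model. The threshold without the block ran between Ptma (edgeR adjusted p = 0.0498) and Cfap52 (0.0499) on the inside, and Ifi213 and Il6ra (both 0.0501) on the outside.

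**Figure D4:**
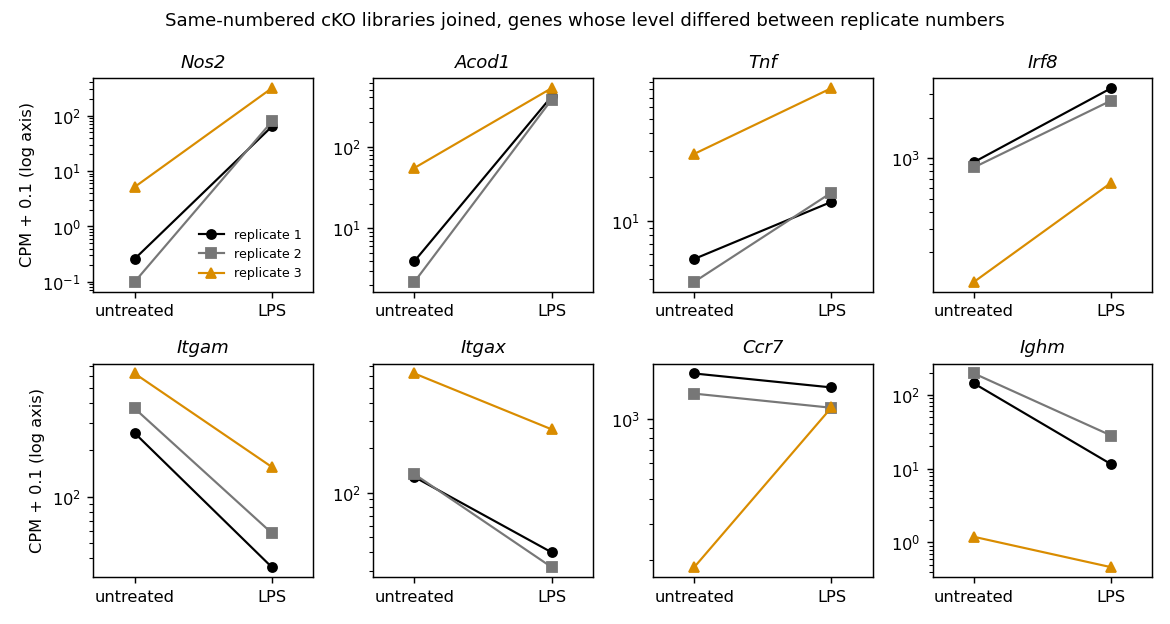
CPM plus 0.1 on a log axis for 8 genes in the untreated and LPS libraries of cKO BMDCs, with lines joining libraries of the same replicate number. In Nos2, Acod1, Tnf, Itgam and Itgax replicate 3 (orange) is higher than the others in both states and in Irf8 and Ighm lower, with lines that run the same way; in Ccr7 only the line of replicate 3 runs upward.

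Whether the response to LPS differed in fl/fl BMDCs without Cre, which keep CD18, was tested over all 12 libraries as the interaction of genotype and LPS. No gene of 13752 passed (edgeR), with 97 at an unadjusted p below 0.05. When replicate numbers were blocked inside each genotype the counts were 0 and 212, and DESeq2 called 1. The fl/fl libraries alone gave 263 genes that rose (2.06% of 12744) and 233 that fell (1.83%), and 807 (6.33%) and 820 (6.43%) with the block. Of the genes that rose in cKO without the block, 164 also rose in fl/fl, which is 58.0% of the cKO list and 62.4% of the fl/fl list. For genes that fell the number was 120, or 53.8% and 51.5%. With the block 693 genes rose in both, 53.3% of the cKO list and 85.9% of the fl/fl list, and 669 fell in both, 53.1% and 81.6%. No gene was called in opposite directions. Of the 506 genes called in cKO, 504 were tested in fl/fl and all had the same sign there. The difference between the responses of a called gene had a median size of 0.30 with a median standard error of 0.56, so that 54 of them had a difference of over 1 that did not pass. Il6 had a fold change of 6.06 ± 0.80 in fl/fl, and the response in cKO minus that in fl/fl was 0.45 ± 0.78. For Irf7 these values were 5.64 ± 0.75 and 0.48 ± 0.80, for Cd86 1.87 ± 0.25 and 0.28 ± 0.34, for Fcrls -4.57 ± 0.55 and 0.01 ± 0.62, and for Ccnb1 -3.39 ± 0.71 and -0.24 ± 0.86. Among the genes with the smallest p of this test, AW011738 rose by 7.83 ± 0.85 in cKO and 4.77 ± 0.47 in fl/fl, a difference of 3.10 ± 0.86 that was not significant after adjustment. The untreated cKO libraries held 1, 0 and 4 reads of it, so these values depend on how so few reads are modelled. Values that miss the threshold do not show that the genotypes responded alike.

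**Figure D5:**
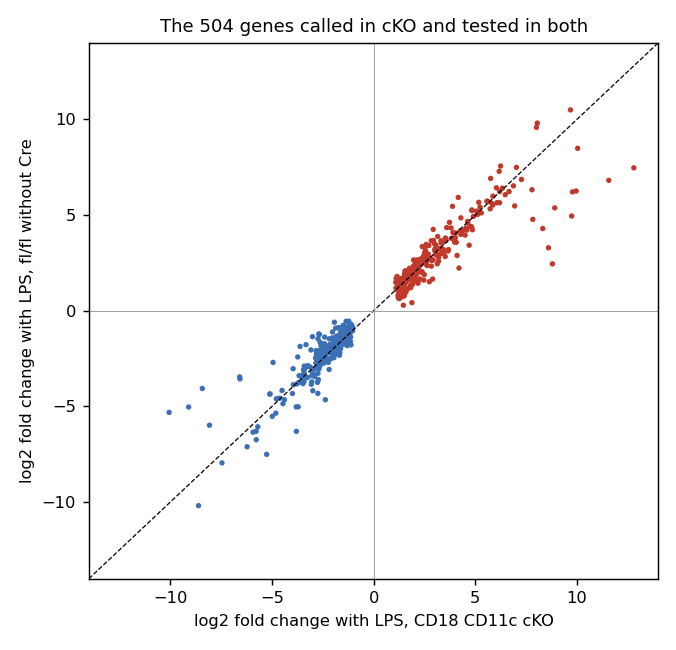
Fold change with LPS (log2) in CD18 CD11c cKO BMDCs (x axis) against that in fl/fl BMDCs without Cre (y axis) for the 504 genes called in cKO without the block and tested in both; red genes rose and blue genes fell in cKO. All points lie in the quadrants of equal sign, around the dashed line of equal response; the genes were chosen by the values on the x axis.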

How the data were processed

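RNA was sequenced from 12 BMDC libraries as single-end reads of 59 nt after poly(A) selection, from 10 ng of RNA with 15 PCR cycles. Per the paper's methods, the authors mapped the reads in CLC Genomics Workbench with default settings and counted them per gene. The deposited files hold counts of total, unique, exon and intron reads per gene. They also hold TPM, which the authors' software scaled by exon length within each library. TPM and exon length were not used for a test, other than length as an offset. The labels list GRCm38, whereas the paper names GRCm39, which the positions in the files match. The annotation release is not given in the sources used here. Total gene reads include reads with several mapping positions, so near-identical genes can share reads, and the unique share was 95.3% to 95.7%. The sources used here do not say whether counting used strand.

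Counts of the 6 cKO libraries were filtered with filterByExpr at a minimum count of 10 and scaled by TMM, and LPS was tested with the quasi-likelihood test of edgeR 4.0.16 in R 4.3.3 at an adjusted p of 0.05. DESeq2 1.42.0 was an alternative, and Python 3.11.15 was used for tables. Libraries sharing a replicate number deviated together, with correlations of 0.359, 0.386 and 0.613, against -0.445 to 0.224 for other pairs. Deviations were taken from each group's mean, where they cancel out, so the other pairs are not an independent comparison. Replicates 1 and 2 also correlated across numbers, at 0.224 and 0.180, so the pattern was mainly replicate 3 against those 2. The numbers come from the labels, which do not say what they share, so the model with the number as a block is given beside the one without. The limit of detection was 3 reads per library, 0.0911 to 0.101 CPM before TMM scaling. It covers counting error only, since reads carried no molecular identifiers. No pair of libraries was alike within counting noise. The tests were tested on simulated data. Genes were named by rule: those with the smallest p or largest fold, the leading members of 56 function and marker lists, a fixed set, those with the smallest interaction p and those at the threshold. Il1a and the prostaglandin genes that fell with the block are outside it and were picked after their values were known. The members, lists and rule were chosen with earlier results of these data known. Promoters were found for 12656 of the 12687 genes. Some genes that the rule names are not reported here.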

Additional observations from a re-analysis of the deposited data

Results flagged for a closer look

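Intron reads, as classed by the authors' counting software, are part of the gene totals tested and were not tested on their own. They made up 3.056%, 4.004% and 2.390% of gene reads in the LPS libraries of cKO BMDCs, against 1.936%, 2.297% and 1.913% untreated. The gene with the most reads in this class was mt-Rnr2, the mitochondrial large ribosomal RNA, in all 6 libraries, so the class is not a measure of unspliced RNA alone. Without the 10 genes with the most intron reads summed over the 6 libraries, the shares were 1.21%, 1.28% and 1.502% after LPS and 1.13%, 1.305% and 1.37% untreated.

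Gemin4, a subunit of the SMN complex, was the gene called by DESeq2 as responding differently in the 2 genotypes (adjusted p = 0.0145). It had 60, 44 and 28 reads in untreated fl/fl libraries and 0, 35 and 67 after LPS, and 0, 78 and 0 reads in untreated cKO libraries and 0 in all 3 after LPS. A count of 0 and a count of 78 occurred within the same group, and edgeR did not call it.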

How the results depend on the processing

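The model decided the number of calls, which are given here as genes that rose and genes that fell, against 283 and 223. The replicate block gave 1300 and 1260, and 1348 and 1201 with a length offset, 1279 and 1202 on exon reads, 1327 and 1253 with RLE factors, and 884 and 1864 with library-size scaling. DESeq2 gave 776 and 756, or 1732 and 1645 with the replicate block. No filter on low counts gave 436 and 369, 12 libraries in 1 fit 513 and 470, a test against a 2-fold change 59 and 27, replicates 1 and 2 alone 1021 and 1028, and library-size scaling 186 and 300, where 38.3% of the calls were upward against 55.9%. Leaving out 1 library gave 0 to 545 genes that rose and 0 to 488 that fell. Exon reads, the blocked fits with RLE factors or library-size scaling, and the fit of replicates 1 and 2 were added after the data were seen. The interaction gave 0 calls in every edgeR alternative and 1 with DESeq2. Of the named genes called without the block, none lost its call with the replicate block, but 18 lost it in some other alternative that kept all libraries: 8 with library-size scaling, 7 with the length offset, 4 with RLE factors, 3 in the fit of 12 libraries, 2 on unique reads and 1 on exon reads, without and with the block. Directions changed only among named genes not called without the block. When 1 library was left out, the values ran from -1.11 to 3.99 for Ccl17, from -3.12 to 1.11 for Ccl6, from -0.29 to 0.70 for Ccr7, from -1.66 to 0.03 for Itgal, from -1.37 to 3.12 for Socs3 and from -1.59 to 0.24 for Tlr4. Ccr7 was at -0.26 in replicates 1 and 2 alone. The cause was not tested.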

Other observations

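Other function lists are given beside the 10.2% of all genes that rose and the 9.93% that fell with the block. Of 79 cytosolic ribosomal protein genes none was called without the block, and 1 rose and 12 fell with it, with a median of -0.32. Of 73 nuclear genes of the respiratory chain 2 rose and 4 fell with the block, and of 22 cholesterol synthesis genes 2 and 5. Of 26 lysosomal genes 2 fell without the block, and 3 rose and 8 fell with it. Of 20 genes of the BCL2 family and cell death 2 rose without the block, and 6 rose and 1 fell with it. Cflar, an inhibitor of caspase 8, rose from 27.8, 32.9 and 27.3 to 91.3, 115 and 183 CPM (2.15 ± 0.32, edgeR adjusted p = 0.0217). Bcl2a1b rose from 1969, 1641 and 1050 to 3685, 4356 and 5535 CPM, although it has near-identical copies. The 13 mitochondrially encoded genes had a median of -0.68, and none was called in either model. Of 6 markers of conventional DC2, none was called without the block and 5 fell with it, and their sum went from 902, 570 and 2157 CPM to 119, 122 and 440 CPM. Mgl2 alone gave 602, 309 and 1557 CPM of the untreated sums, so they mostly describe that gene. Of 6 tested markers of conventional DC1, 1 rose and 1 fell with the block.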
